A study of Mus musculus with 18 samples.

Results

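Traditional-seq, which joins adapters to untreated small RNA, was used here to compare the livers of male C57BL/6 mice on a high-cholesterol diet (HCD) with those of mice on a low-cholesterol diet (LCD). The comparison takes every traditional-seq library of the series, 4 from HCD-fed and 5 from LCD-fed mice, which is 9 of 18 libraries, and all 1234 RNAs of the deposited table. The other 9 libraries were made from the RNA of the same livers by PANDORA-seq, in which the enzymes T4PNK and AlkB repair fragment ends and remove methyl groups before library construction. Both diets were semisynthetic low-fat AIN76 diets, with 0.5% cholesterol in the HCD and 0.02% in the LCD, and all mice were wild type and 8 weeks old at the start. The feeding time is given as 9 weeks in the growth protocol, as 8 weeks in the time entry and as 4 weeks in both the design text and the published methods. Each library stands for the liver of 1 mouse, and whole liver was sampled, so that fewer cells of a type and less of an RNA per cell cannot be told apart.

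A miRNA is cut from a hairpin precursor and silences mRNAs that match its seed, a short stretch near its 5′ end. tRNA-derived small RNAs (tsRNAs) are cut from tRNAs, and angiogenin, an RNase, makes many of the long fragments of the 5′ end by cleavage in the anticodon loop. Fragments of ribosomal RNA (rsRNAs) and of Y RNA (ysRNAs), small RNAs bound by the Ro60 protein, also appear in small RNA libraries. Traditional-seq reads mostly RNAs with a free 3′ hydroxyl and few methylated bases, so what it counts of a tRNA or rRNA is only the part with such ends. In the liver, miR-122 is the defining miRNA of hepatocytes.

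To show which miRNAs the values below belong to, mature sequences of several of them are given from RefSeq (GRCm38.p6) with the seed, bases 2 to 8, in capitals. The members of their clusters stand beside them because they are cut from the same transcript. The table sums both arms of a precursor, so which arm was read is not known, and the arm shown is the one usually taken as the main product.
miR-23a-3p: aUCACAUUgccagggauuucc
miR-27a-3p: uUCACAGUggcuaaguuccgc
miR-27b-3p: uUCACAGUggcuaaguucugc
miR-24-3p: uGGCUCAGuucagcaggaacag
miR-182-5p: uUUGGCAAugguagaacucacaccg
miR-96-5p: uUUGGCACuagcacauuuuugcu
miR-183-5p: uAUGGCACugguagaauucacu
miR-652-3p: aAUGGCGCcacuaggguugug
miR-3108-5p: gUCUCUAAagcuagacguuccgg
miR-6236: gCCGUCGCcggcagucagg
miR-27a and miR-27b share the seed UCACAGU, which differs from the seed UCACAUU of miR-23a, and miR-24-3p is the same RNA from both of its genes. The genes of miR-23a, miR-27a and miR-24-2 lie side by side on the plus strand of chromosome 8, at chr8:84208518-84208592, chr8:84208672-84208758 and chr8:84208815-84208921. Those of miR-23b, miR-27b and miR-24-1 lie at chr13:63300484-63300557, chr13:63300712-63300784 and chr13:63301208-63301275. The genes of miR-182, miR-96 and miR-183 lie on the minus strand at chr6:30165918-30165992, chr6:30169446-30169551 and chr6:30169668-30169737.

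Levels are given as RPM, the reads of an RNA scaled to a fixed library total, as deposited. The total inferred from the RPM value of 1 read was 7567279 to 25488322 reads for the HCD (median 13006219) and 1934330 to 16766908 for the LCD (median 5079375), so 1 read is worth 0.0392 to 0.517 RPM. Between 4.15% and 8.12% of the reads of HCD libraries, and between 4.28% and 5.79% of those of LCD libraries, fall on none of the listed RNAs. Of the 1234 RNAs, 1100 were above 0 in at least 1 of the 9 libraries, and 349 reached 1 RPM in at least 4 of them and entered the test. Among these 61 RNAs (17.5%) had all 4 HCD libraries below all 5 LCD libraries in RPM and 5 (1.43%) had all 4 above. In this scale the median RNA was 0.53 lower on the HCD (log2), so single RNAs were compared after TMM scaling, which sets the bulk of the RNAs near 0 (median 0.06). In the LCD group the libraries of mice 2 and 5 stood apart from those of mice 1, 3 and 4, with TMM factors of 1.99 and 1.78 against 1.34, 0.796 and 0.718. Values without these 2 libraries are given where a call is lost, under an alternative chosen after the data were seen.

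Of 349 RNAs, 12 (3.44%) rose and 22 (6.30%) fell on the HCD at an adjusted p under 0.05 by limma. By class, cytosolic tsRNA families gave 7 that rose and 9 that fell of 49, mitochondrial ones 5 that fell of 22, miRNAs 4 that rose and 8 that fell of 267, and rsRNAs 1 that rose of 8. With RPM as deposited 3 RNAs rose (0.860%) and 57 fell (16.3%), which is another split between the directions. The 22 that fell were called in the same direction under at least 3 of 4 other scalings, and 10 of them under all 4. These scalings are RPM as deposited, by miRNA reads, by the listed RNAs and within classes. The first 3 put the median RNA at -0.53, -0.56 and -0.51, so an RNA lower after TMM scaling tends to lie lower still. Their calls are therefore not separate support. For a miRNA, scaling within classes repeats scaling by miRNA reads. Within classes, 2 cytosolic and 0 mitochondrial tsRNA families were called lower. Of the 12 that rose, 18S rRNA was called under all 4 and also without the libraries of LCD-fed mice 2 and 5, where 3 (0.912%) rose and 38 (11.6%) fell of 329. The other 2 of those 3, miR-6236 and miR-714, passed the filter on low values only through the HCD libraries, so nothing is read from their calls. Among the 22 that fell, miR-96 passed it only through the LCD libraries and is treated likewise.

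**Figure D1:**
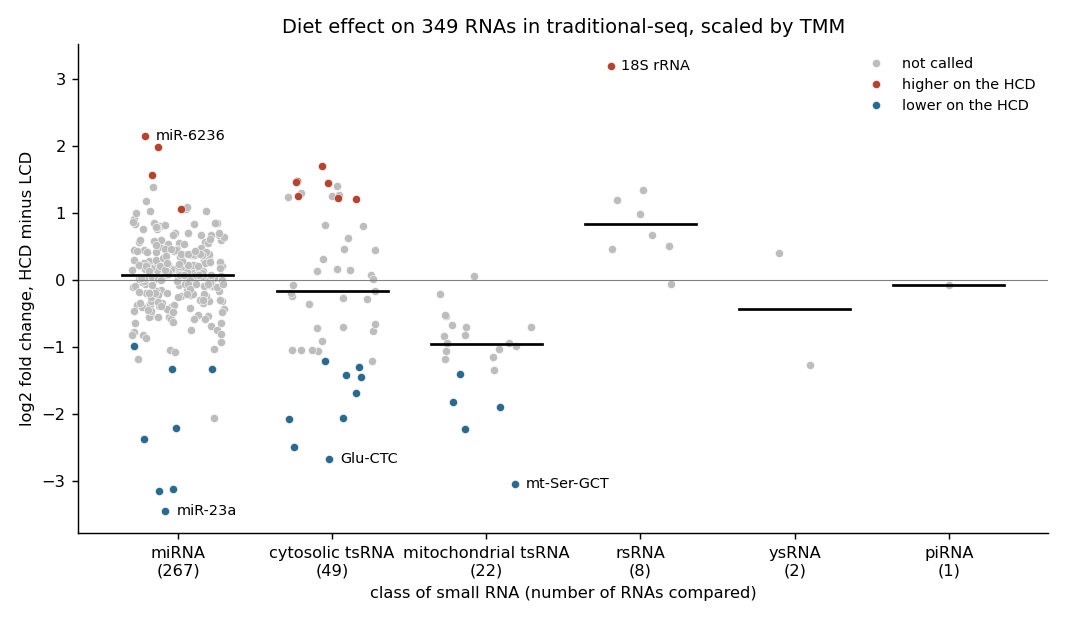
Diet effect (log2 fold change, HCD minus LCD, after TMM scaling) of each of the 349 RNAs compared, by class of small RNA. Points are RNAs, coloured where they passed the test (12 higher and 22 lower on the HCD), and black lines are class medians, which lie at 0.08 for miRNAs, -0.16 for cytosolic tsRNAs, -0.96 for mitochondrial tsRNAs and 0.83 for rsRNAs.

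Both classes of tsRNA took a smaller share of the listed reads on the HCD. Cytosolic tsRNAs made up 1.34%, 2.33%, 0.647% and 2.03% in the 4 HCD libraries, against 6.72%, 8.13%, 7.10%, 6.24% and 7.87% in the 5 LCD libraries, with no overlap. Their mean was 1.59% ± 0.750 (SD, n = 4) on the HCD and 7.21% ± 0.786 (SD, n = 5) on the LCD (exact permutation test, two-sided, p = 0.00794, adjusted p = 0.0238 over 6 classes). Mitochondrial tsRNAs made up 0.354% ± 0.181 (SD, n = 4) on the HCD and 1.79% ± 0.400 (SD, n = 5) on the LCD, also without overlap (exact permutation p = 0.00794, adjusted p = 0.0238). This p is the smallest that 4 against 5 libraries can give. The share of the piRNA entry, which holds all reads matched to piRNAs, was 2.65% ± 0.996 (SD, n = 4) on the HCD and 4.10% ± 0.256 (SD, n = 5) on the LCD (exact permutation p = 0.0238, adjusted p = 0.0476), and 1 HCD library, at 3.97%, lay within the LCD range of 3.79% to 4.34%. With 1 library left out, the piRNA share passed the test only when that library was HCD-fed mouse 16 (adjusted exact permutation p up to 0.171 otherwise), and the tsRNA shares passed only when it was HCD-fed mouse 16 or 18 (up to 0.0857 otherwise). The unadjusted p of both tsRNA shares was each time the smallest possible, 0.0179 without an HCD library and 0.0286 without an LCD library. Whether their adjusted p passed then turned on the other classes, so it does not show that they rest on 1 mouse.

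The other classes did not pass the test. miRNAs made up 70.6% ± 10.2 (SD, n = 4) on the HCD and 67.3% ± 2.72 (SD, n = 5) on the LCD, and rsRNAs 24.8% ± 8.83 (SD, n = 4) on the HCD and 19.5% ± 2.07 (SD, n = 5) on the LCD, with adjusted exact permutation p-values of 0.524 and 0.417. The HCD libraries were spread more widely, from 62.0% to 82.0% for miRNAs and from 14.0% to 32.9% for rsRNAs, against 62.99% to 69.5% and 16.9% to 22.7% for LCD libraries. ysRNAs stayed under 0.0105% of the reads in each library.

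**Figure D2:**
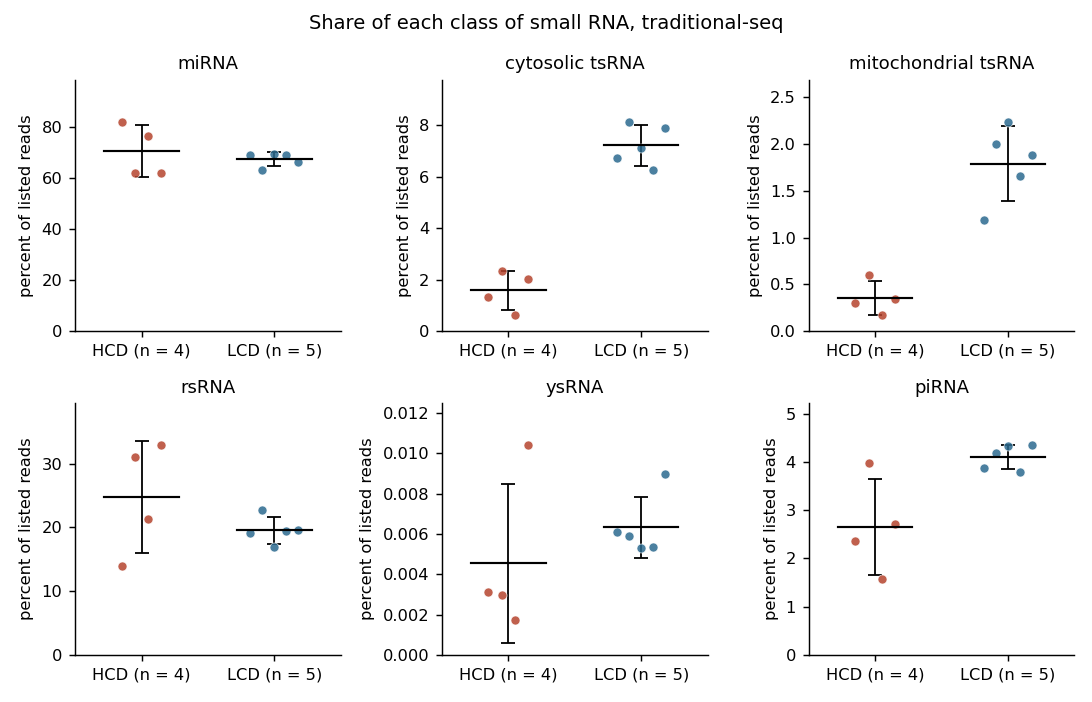
Share of each class among the reads of the listed RNAs in percent, with 1 point per library, black lines for the mean and bars for the SD. Cytosolic tsRNAs lie at 0.647% to 2.33% in the 4 HCD libraries and at 6.24% to 8.13% in the 5 LCD libraries, while the miRNA and rsRNA shares of the diets overlap.

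The tsRNAs of the Glu and Gly tRNAs made up most of the cytosolic tsRNA reads on the LCD and fell on the HCD. Their 5′ fragments are the best known products of angiogenin, and both tRNAs are read from many genes, 12 for Glu-CTC and 14 for Gly-GCC in RefSeq. tsRNA-Glu-CTC, the family that the study follows, had 2955, 4652, 1205 and 3064 RPM in HCD livers, against 20461, 25873, 32549, 29502 and 26234 RPM in LCD livers, so the highest HCD library lay far below the lowest LCD library. It fell by 2.67 on the log2 scale (SE 0.448, limma adjusted p = 0.00142). tsRNA-Glu-TTC had 686, 938, 264 and 874 RPM in HCD livers, against 3572, 7585, 6252, 4974 and 5897 RPM in LCD livers, and fell by 2.50 (SE 0.400, limma adjusted p = 0.00100). The ratio of the 2 Glu families within a library overlapped between the diets, with a log2 of Glu-CTC over Glu-TTC of 1.81 to 2.31 in HCD livers and of 1.77 to 2.57 in LCD livers, and since these tRNAs are alike in sequence they may share reads. All 4 calls of the Glu, Gly-GCC and Gly-CCC families held whichever library was left out.

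tsRNA-Gly-GCC had 4587, 8523, 1438 and 2924 RPM in HCD livers, against 28352, 29539, 18351, 16685 and 28851 RPM in LCD livers. It fell by 2.08 (SE 0.422, limma adjusted p = 0.00751), and tsRNA-Gly-CCC fell by 2.05 (SE 0.405, limma adjusted p = 0.00650), with 167 to 965 RPM on the HCD and 1802 to 3531 RPM on the LCD. The 4 families together made up 56.9% ± 15.5 (SD, n = 4) of the cytosolic tsRNA reads on the HCD and 87.4% ± 0.903 (SD, n = 5) on the LCD, so the families fell unequally. Within the class, scaled by its own reads, tsRNA-Glu-CTC still fell by 0.96 and tsRNA-Glu-TTC by 0.79 (limma adjusted p = 0.00608 and 0.0255), while the 2 Gly families no longer passed the test (adjusted p = 0.403 and 0.443).

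Smaller decreases were found in 5 other cytosolic families. tsRNA-His-GTG had 495, 744, 217 and 539 RPM in HCD livers, against 1810, 2180, 1307, 1207 and 2651 RPM in LCD livers, and fell by 1.30 (SE 0.332, limma adjusted p = 0.0234). tsRNA-Ala-CGC fell by 1.68 with 67.1 to 248 RPM on the HCD and 532 to 996 RPM on the LCD, and tsRNA-Lys-CTT by 1.41 with 102 to 532 RPM on the HCD and 583 to 1793 RPM on the LCD (limma adjusted p = 0.0474 and 0.0350). tsRNA-Gly-TCC and the rare tsRNA-Arg-TCT fell by 1.45 and 1.21 (limma adjusted p = 0.0389 and 0.0448). The HCD libraries of these 5 lay below all LCD libraries in RPM, but scaled to the reads of their own class the same 5 had log2 differences of 0.02 to 0.41, on the other side of 0. Leaving out 1 library raised the adjusted p above 0.05 for each of them, as leaving out HCD-fed mouse 18 did for Ala-CGC, Gly-TCC, Lys-CTT and Arg-TCT (0.0627 to 0.104).

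Of the 9 families listed as known to give angiogenin 5′ fragments, 6 fell and 0 rose, beside 9 of 49 cytosolic families (18.4%) and 22 of 349 RNAs (6.30%) that fell. Their median difference was -1.41, against -0.16 over the cytosolic families and 0.06 over all RNAs tested. The reads are summed over each tRNA family, so whether they are 5′ fragments is not known, and a part of angiogenin was not tested. The list was drawn up with earlier results of these data known, and it holds the family that the study chose. The 3 that did not pass were Asp-GTC, Val-CAC and Val-AAC. tsRNA-Asp-GTC, with 81.9, 204, 49.4 and 204 RPM in HCD livers, against 523, 608, 307, 281 and 442 RPM in LCD livers, lay just outside the threshold (-1.21, limma adjusted p = 0.0501).

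Other cytosolic families went the other way. tsRNA-Gln-CTG had 653, 805, 579 and 1742 RPM in HCD livers, against 462, 521, 465, 386 and 583 RPM in LCD livers, and rose by 1.48 on the log2 scale after TMM scaling (SE 0.356, limma adjusted p = 0.0191), with 1 HCD library inside the LCD range. tsRNA-Gln-TTG rose by 1.47 (adjusted p = 0.0191) and had 284 to 875 RPM on the HCD and 185 to 283 RPM on the LCD, so that the diets just missed each other. tsRNA-Trp-CCA had 69.0, 147, 91.3 and 147 RPM in HCD livers, against 48.1, 44.7, 54.9, 55.9 and 52.2 RPM in LCD livers, without overlap, and rose by 1.70 (SE 0.424, limma adjusted p = 0.0207). tsRNA-Tyr-GTA, Thr-AGT, Arg-ACG and Phe-GAA rose by 1.23, 1.45, 1.25 and 1.21 (limma adjusted p = 0.0360, 0.0204, 0.0387 and 0.0467), and their RPM overlapped between the diets. None of these 7 calls was made on RPM as deposited, where the differences were 0.58 to 1.07 and the adjusted p 0.0586 to 0.390, nor without the libraries of LCD-fed mice 2 and 5 (adjusted p = 0.0566 to 0.231).

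Because a ratio of RNAs within a library is free of the scaling, the contrast between the families can be read from it directly. Glu-CTC exceeded Gln-CTG by 2.18, 2.53, 1.06 and 0.81 on the log2 scale in the HCD libraries and by 5.47, 5.64, 6.13, 6.26 and 5.49 in the LCD libraries. tsRNA-Gln-CTG made up 6.89% ± 2.87 (SD, n = 4) of the cytosolic tsRNA reads on the HCD and 0.705% ± 0.0539 (SD, n = 5) on the LCD. Both families were picked for their difference, so these ratios are a description.

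The families with a long variable arm, those of Leu, Ser and selenocysteine tRNAs, gave 0 calls by limma among 10 tested (3 at an unadjusted p under 0.05), with a median of 1.04 and 9 of 10 above 0. In this group 1 library set the mean. tsRNA-Leu-CAG had 200, 121, 312 and 2595 RPM in HCD livers, against 168, 206, 403, 249 and 263 RPM in LCD livers, so that only HCD-fed mouse 18 lay outside the LCD range on the high side. Its difference of 1.24 did not pass the test (SE 0.693, limma adjusted p = 0.320). tsRNA-Leu-CAA followed it, with 1146 RPM in the same library and 58.8 to 149 RPM in the other HCD libraries. tsRNA-Ser-GCT, another family named by the study, had 9.70, 20.7, 8.11 and 36.4 RPM in HCD livers, against 11.5, 8.35, 17.2, 13.5 and 17.1 RPM in LCD livers, and its difference of 0.83 did not pass either (limma adjusted p = 0.309).

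**Figure D3:**
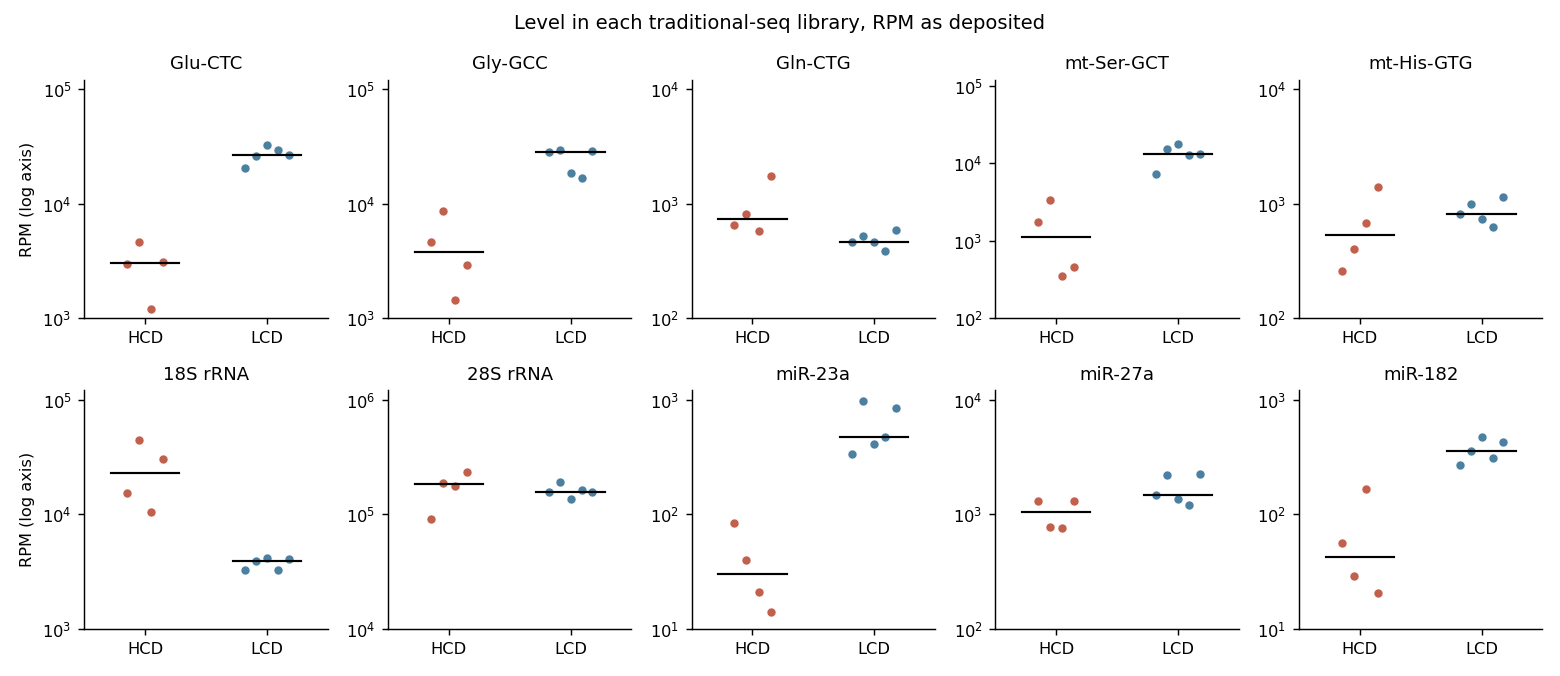
RPM as deposited of 10 RNAs in each traditional-seq library on log axes, HCD on the left and LCD on the right of each panel, with black lines for the median. Glu-CTC, Gly-GCC, mt-Ser-GCT, miR-23a and miR-182 lie lower in every HCD library and 18S rRNA higher, while mt-His-GTG, 28S rRNA and miR-27a overlap.

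In the mitochondria, where 22 tRNAs serve all codons, 21 of 22 families had a negative difference, 5 fell and 0 rose, with a median of -0.96, which turned to 0.64 only when each family was scaled to the reads of its own class. Under that scaling 0 of the 22 were lower and 4 were higher, so all 5 calls were lost (limma adjusted p = 0.057 for mt-Ser-GCT and 0.445 to 0.964 for the others). In RPM 15 of the 22 had all HCD libraries below all LCD libraries, beside 61 (17.5%) of the 349 RNAs tested. Of these 349, 155 had a negative difference after TMM scaling and 22 (6.30%) fell. The family of mt-Ser-GCT led, and the sequences of 2 serine tRNAs that fell and of the histidine tRNA, whose fragments did not, are shown from GENCODE M21 (GRCm38) with the anticodon in capitals.
mt-Ts2 (Ser-GCT): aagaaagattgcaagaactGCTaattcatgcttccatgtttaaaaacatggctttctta
mt-Ts1 (Ser-TGA): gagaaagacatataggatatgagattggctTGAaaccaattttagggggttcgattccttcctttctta
mt-Th (His-GTG): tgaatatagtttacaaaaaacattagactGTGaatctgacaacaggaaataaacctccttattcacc
mt-Ts2 lies at chrM:11613-11671 on the plus strand, next to mt-Th at chrM:11546-11612, and mt-Ts1 at chrM:6870-6938 on the minus strand. With 59 bases mt-Ts2 is the shortest of the 3, and it is known to lack the D arm that other tRNAs have.

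mt-Ser-GCT tsRNA had 1758, 3331, 353 and 463 RPM in HCD livers, against 7277, 15198, 17871, 12874 and 13056 RPM in LCD livers, and fell by 3.04 (SE 0.623, limma adjusted p = 0.00751). HCD-fed mice 17 and 18 were lowest, at 21.7% and 14.5% of the mitochondrial tsRNA reads, against 62.0% and 60.3% in HCD-fed mice 15 and 16 and 65.3% to 83.8% in LCD-fed mice. mt-Ser-TGA tsRNA had 74.5, 101, 26.2 and 19.4 RPM in HCD livers, against 298, 329, 368, 292 and 362 RPM in LCD livers, and fell by 2.22 (SE 0.517, limma adjusted p = 0.0166). mt-Ala-TGC, mt-Gln-TTG and mt-Cys-GCA tsRNAs fell by 1.89, 1.82 and 1.40 (limma adjusted p = 0.0152, 0.0226 and 0.0247). The mt-Gln-TTG call was lost without HCD-fed mouse 18 (adjusted p = 0.0585), and the mt-Cys-GCA call without any 1 of LCD-fed mice 3, 4 and 5 and HCD-fed mice 15 and 17 (up to 0.0662). mt-His-GTG tsRNA had 258, 398, 673 and 1403 RPM in HCD livers, against 803, 1000, 737, 622 and 1129 RPM in LCD livers, which overlap, with a difference of 0.06 (limma adjusted p = 0.964). Within a library, mt-Ser-GCT over mt-His-GTG was 2.77, 3.06, -0.93 and -1.60 on the log2 scale in HCD livers and 3.18 to 4.60 in LCD livers.

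Among the rsRNAs, 18S rRNA, the RNA of the small ribosomal subunit, rose on the HCD. Its fragments had 15279, 44444, 10542 and 30586 RPM in HCD livers, against 3267, 3887, 4155, 3264 and 4033 RPM in LCD livers. The lowest HCD library lay well above the highest LCD library. The difference was 3.19 on the log2 scale (SE 0.428, limma adjusted p = 0.000364) and 2.55 on RPM as deposited (adjusted p = 0.000214), and it was called whichever library was left out (adjusted p up to 0.00248). 18S fragments made up 11.6%, 15.6%, 5.17% and 10.1% of the rsRNA reads in HCD livers, against 1.81%, 1.81%, 2.59%, 1.75% and 2.18% in LCD livers (exact permutation p = 0.00794, adjusted p = 0.0317 over 8 rRNAs).

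None of the other rRNAs passed the limma test, though of all 8 only 1 had a negative difference (median 0.83). 28S rRNA, of the large subunit, had 90241, 188613, 175407 and 231221 RPM in HCD livers, against 155180, 190289, 134833, 162215 and 155108 RPM in LCD livers, and did not pass the test (0.68, limma adjusted p = 0.387). The 18S over 28S ratio within a library was -2.91 ± 0.840 (SD, n = 4) on the log2 scale on the HCD and -5.42 ± 0.269 (SD, n = 5) on the LCD, without overlap. The mitochondrial 16S rRNA took a smaller part of the rsRNA reads, 0.361% ± 0.131 (SD, n = 4) on the HCD and 0.666% ± 0.0834 (SD, n = 5) on the LCD (exact permutation p = 0.00794, adjusted p = 0.0317), though its RPM overlapped and limma gave an adjusted p of 0.964. 5S rRNA and the precursor 45S had differences of 1.34 and 1.19 just outside the threshold (limma adjusted p = 0.0548 and 0.0562), and 5.8S, 12S and 4.5S had 0.98, 0.51 and 0.46 (adjusted p = 0.186 to 0.548). The shares of 28S, 5S, 5.8S, 45S, 12S and 4.5S among the rsRNAs had adjusted exact permutation p-values of 0.0635 to 0.738. As a percent of all reads the 18S difference kept its direction and its unadjusted exact permutation p of 0.00794, the smallest possible. Its adjusted p there was 0.0635, the other rRNAs having larger p-values. The position of the reads along an rRNA is not part of the table.

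**Figure D4:**
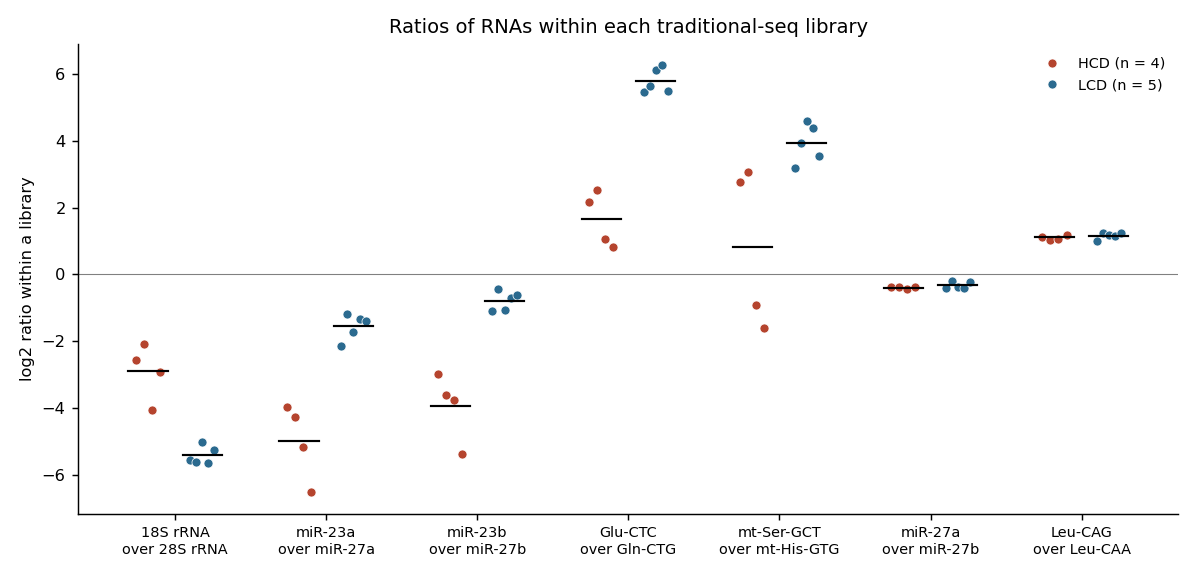
Log2 ratio of 2 RNAs within each library, HCD left and LCD right at each pair, with black lines for the mean. The 5 pairs on the left do not overlap between the diets, with 18S over 28S at -2.91 on the HCD and -5.42 on the LCD on average, while miR-27a over miR-27b and Leu-CAG over Leu-CAA overlap. The RNAs were chosen with earlier results of these data known, so all these ratios are a description.

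Among the miRNAs, the 2 paralogs miR-23a and miR-23b fell on the HCD. miR-23a had 84.3, 39.9, 20.8 and 14.1 RPM in HCD livers, against 334, 972, 407, 473 and 837 RPM in LCD livers, and fell by 3.45 (SE 0.495, limma adjusted p = 0.000446). miR-23b had 217, 81.9, 75.4 and 41.2 RPM in HCD livers, against 911, 1868, 834, 974 and 1697 RPM in LCD livers, and fell by 3.12 (SE 0.469, limma adjusted p = 0.000597). Both were called whichever library was left out and under all 4 other scalings. For a miRNA, scaling by miRNA reads and scaling within classes are the same, so these are not 4 separate checks. Their mature RNAs are nearly alike, so reads may be divided between them.

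The members of the same 2 clusters did not move with them. miR-27a, a repressor of lipid genes in liver, had 1315, 778, 756 and 1296 RPM in HCD livers, against 1473, 2215, 1344, 1196 and 2221 RPM in LCD livers, which overlap, and miR-27b likewise had 1010 to 1704 RPM on the HCD and 1589 to 2610 RPM on the LCD. Neither passed the test, and nor did miR-24-1 or miR-24-2, with 77.3 to 188 and 89.8 to 221 RPM on the HCD against 95.0 to 232 and 105 to 283 RPM on the LCD. Of the 6 members of the clusters, 2 fell and 0 rose, with a median of -0.03. miR-23a over miR-27a within a library was -4.99 ± 1.15 (SD, n = 4) on the log2 scale on the HCD and -1.56 ± 0.379 (SD, n = 5) on the LCD, and miR-23b over miR-27b was -3.93 ± 1.02 on the HCD and -0.79 ± 0.281 on the LCD. miR-27a over miR-27b, by contrast, was -0.39 ± 0.0272 on the HCD and -0.32 ± 0.0975 on the LCD.

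The cluster of miR-183, miR-96 and miR-182, known from sensory cells and epithelia and, for miR-96 and miR-182, from the SREBP pathway, lay lower in every HCD library than in any LCD library. miR-182 had 56.3, 29.1, 165 and 20.6 RPM in HCD livers, against 268, 358, 470, 309 and 428 RPM in LCD livers, and fell by 2.21 (SE 0.652, limma adjusted p = 0.0454), a call that 7 of 9 single libraries ended when left out (adjusted p up to 0.0730). miR-183 had 24.1, 10.3, 82.2 and 16.7 RPM in HCD livers, against 109, 155, 241, 153 and 185 RPM in LCD livers, and lay just outside the threshold (-2.05, limma adjusted p = 0.0557). The rare miR-96 had 0.902, 0.396, 1.02 and 0.966 RPM in HCD livers, against 3.62, 5.51, 3.67, 1.85 and 5.22 RPM in LCD livers. It passed the filter only through the LCD libraries, so its values are a description and no test is given. These 3 also stand in the marker list of biliary epithelium, of which 2 of 8 members, miR-182 and miR-96, were counted as lower and 0 as higher. Of all 267 miRNAs, 8 were counted as lower. The summed level of that list was 196 to 369 RPM on the HCD and 534 to 1103 RPM on the LCD. Its other members, the defining miR-200 family, overlapped between the diets, with miR-200a at 35.9 to 115 RPM on the HCD and 48.4 to 171 RPM on the LCD and miR-200b at 51.9 to 115 RPM on the HCD and 54.5 to 180 RPM on the LCD.

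miR-652 had 27.0, 17.7, 6.05 and 5.79 RPM in HCD livers, against 62.0, 359, 39.4, 40.6 and 260 RPM in LCD livers, and fell by 2.37 (SE 0.537, limma adjusted p = 0.0152). The libraries of LCD-fed mice 2 and 5 were several times above the other LCD libraries, and without them the adjusted p was 0.0449. Leaving out HCD-fed mouse 17 raised it to 0.0595 and leaving out mouse 18 to 0.0639. miR-3108 had 10.7, 25.8, 3.29 and 1.29 RPM in HCD livers, against 78.6, 35.6, 125, 179 and 150 RPM in LCD livers, and fell by 3.15 (SE 0.764, limma adjusted p = 0.0191, and 0.0627 without HCD-fed mouse 18). The identical entries miR-1a-1 and miR-1a-2, the muscle miRNA, had 5.77, 2.75, 1.79 and 1.61 RPM in HCD livers, against 12.9, 15.7, 4.55, 9.28 and 33.9 RPM in LCD livers, and fell by 1.33 each (limma adjusted p = 0.0454, 0.0766 without LCD-fed mice 2 and 5, and up to 0.104 with 1 library left out). The 9 muscle markers summed to 3.76 to 13.3 RPM on the HCD and 9.85 to 75.4 RPM on the LCD, and the defining miR-133a stayed at or under 0.261 RPM in all 9 libraries. The part of muscle tissue in the miR-1a values was not tested.

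The 4 miRNAs counted as higher were all rare. miR-6236 had 2.31, 5.95, 2.58 and 5.90 RPM in HCD livers, against 0, 0.591, 0.421, 0.477 and 0.522 RPM in LCD livers. miR-714 had 1.88, 3.96, 2.52 and 3.54 RPM in HCD livers, against 0, 0.197, 0.661, 0.119 and 0 RPM in LCD livers. Both entered the test only through the 4 HCD libraries that reached 1 RPM, so their values are a description and no test is given. miR-881 and miR-5098 rose by 1.57 and 1.05 (limma adjusted p = 0.0167 and 0.0152) with overlapping RPM, and neither was called on RPM as deposited (adjusted p = 0.162 and 0.208) nor without LCD-fed mice 2 and 5 (adjusted p = 0.115 and 0.0569).

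The 10 miRNAs with the highest mean RPM gave 0 calls by limma, and 1 of them, miR-148a, had an unadjusted p under 0.05. miR-122 had 385384, 337833, 471040 and 150625 RPM in HCD livers, against 323759, 180426, 385545, 378039 and 229369 RPM in LCD livers, and a difference of 0.76 that did not pass the test (SE 0.614, limma adjusted p = 0.535). Of all miRNA reads it took 49.9% ± 16.9 (SD, n = 4) on the HCD and 46.4% ± 12.6 (SD, n = 5) on the LCD. miR-148a, a regulator of the LDL receptor, had 171665, 97992, 127503 and 218721 RPM in HCD livers, against 120030, 153879, 78280, 94714 and 135040 RPM in LCD livers, with a difference of 1.03 (SE 0.355, limma adjusted p = 0.0815). In HCD-fed mouse 18 miR-148a exceeded miR-122, which it did in no other of the 9 libraries. let-7g was the exception in RPM, with 7363, 5328, 4102 and 2345 RPM in HCD livers, against 12063, 12457, 12270, 10792 and 11687 RPM in LCD livers. It did not pass the test after TMM scaling (-0.78, limma adjusted p = 0.359) but was called lower under all 4 other scalings, as on RPM as deposited (-1.43, adjusted p = 0.00684). Of those 4, the scaling by miRNA reads and the one within classes are the same for a miRNA.

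In a list of 43 miRNAs known to act on cholesterol and lipid genes, 39 were tested, of which 4 fell, namely miR-96, miR-182 and both miR-1a entries, and 0 rose. Nothing is read from the call of miR-96, which passed the filter only through the LCD libraries. Of all 267 miRNAs 8 fell, and of all 349 RNAs 22 (6.30%). The list had a median of -0.06 against 0.08 over all miRNAs. miR-33, cut from an intron of the gene for SREBP2 and a repressor of cholesterol export, was too rare to be tested, at 0.549, 0.529, 0.300 and 1.18 RPM in HCD livers and 0.517, 1.57, 0.541, 0.417 and 0.261 RPM in LCD livers. Of the 34 tested miRNAs of liver injury, steatosis and fibrosis, 0 fell and 0 rose by limma (2 at an unadjusted p under 0.05, median 0.06). The let-7 family (14 tested), the miR-17-92 and paralogous clusters (11), the miR-30 family (6), the miR-29 family (4), the miR-192 and miR-194 clusters (4) and the imprinted Dlk1-Dio3 cluster (11 of 50) gave 0 calls as well, with 2 miRNAs of the miR-17-92 clusters and 0 of the other lists at an unadjusted p under 0.05. On RPM as deposited, 8 of the cholesterol and lipid list were lower, 3 of the let-7 family and 2 of the injury, steatosis and fibrosis list. On that scale 2 of the miR-17-92 clusters and 1 of the miR-30 family were lower, and 0 of the miR-29, miR-192 and Dlk1-Dio3 lists. Of all 267 miRNAs, 24 were lower there and 2 higher. The miR-17-92 clusters summed to 774 to 1730 RPM on the HCD and 2348 to 4523 RPM on the LCD. Of 9 hepatocyte markers 0 were called, with a sum of 464547 to 639747 RPM on the HCD and 378890 to 519578 RPM on the LCD and 1 at an unadjusted p under 0.05. On RPM as deposited 1 of these markers was lower. miR-122, the defining marker, was the first or second miRNA of every library. The lists of leukocyte, stellate cell, endothelial and erythroid markers also gave 0 calls and 0 at an unadjusted p under 0.05, and their sums overlapped between the diets. The 3 neural markers of the table summed to at most 4.13 RPM in any library. The 4 pancreas markers, of which 1 was tested and 0 called, summed to 1.07 to 1.92 RPM on the HCD and 2.04 to 6.52 RPM on the LCD.

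The remaining classes hold few RNAs. RNY3, of the Y RNAs, had 6.04, 8.72, 2.88 and 12.8 RPM in HCD livers, against 25.3, 23.4, 28.9, 27.4 and 29.2 RPM in LCD livers, without overlap, and lay just outside the threshold (-1.27, limma adjusted p = 0.0535), while RNY1 overlapped (13.6 to 83.1 RPM on the HCD and 21.7 to 55.5 RPM on the LCD, adjusted p = 0.631). RNY3 was called lower under all 4 other scalings. The piRNA entry had 15169 to 36475 RPM on the HCD and 36306 to 41155 RPM on the LCD, and a difference of -0.08 after TMM scaling (limma adjusted p = 0.957).

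The diet effect was then compared with that seen by PANDORA-seq in the same livers, as the difference of the effects (traditional-seq minus PANDORA-seq) over 365 RNAs. It passed the test for 20 RNAs by limma, 10 positive (2.74%) and 10 negative (2.74%). The libraries of a mouse come from the same RNA, and with the mouse as a replicate block 15 (4.11%) were positive and 40 (11.0%) negative. On RPM as deposited 43 (11.8%) were negative. In the fit without the block, single mice weighed heavily, and leaving out a mouse was not tested with the block. Without LCD-fed mouse 5 limma called 0 RNAs in either direction (16 positive and 15 negative at an unadjusted p under 0.05), and 0 were negative without LCD-fed mouse 2, LCD-fed mouse 4 or HCD-fed mouse 16 (13, 8 and 18 at an unadjusted p under 0.05).

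Among the RNAs that changed with the diet in traditional-seq, 18S rRNA and tsRNA-Trp-CCA had the positive differences. By PANDORA-seq 18S fragments had 62604, 99447, 66721 and 56851 RPM in HCD livers, against 111444, 137532, 54048, 57564 and 92252 RPM in LCD livers, which overlap. The diet effect by traditional-seq exceeded that by PANDORA-seq by 3.07 (SE 0.543, limma adjusted p = 0.00175, and 0.000446 with the replicate block). tsRNA-Trp-CCA averaged 1283 ± 454 RPM (SD, n = 4) by PANDORA-seq on the HCD and 2510 ± 989 RPM (SD, n = 5) on the LCD, and the difference was 2.24 (SE 0.541). Its limma adjusted p was 0.0161, and 0.00831 with the replicate block.

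The negative differences were those of tsRNA-His-GTG, Ala-CGC and Glu-TTC, of mt-Ser-TGA and of miR-96. tsRNA-His-GTG had 27845, 30245, 27140 and 18593 RPM by PANDORA-seq in HCD livers, against 14579, 8089, 14713, 6914 and 5986 RPM in LCD livers, so that every HCD library lay above every LCD library there and below it in traditional-seq. The difference was -3.15 (SE 0.576, limma adjusted p = 0.00175, and 0.000891 with the replicate block). tsRNA-Ala-CGC averaged 539 ± 115 RPM (SD, n = 4) by PANDORA-seq on the HCD and 318 ± 166 RPM (SD, n = 5) on the LCD, with a difference of -2.99 (limma adjusted p = 0.0240). tsRNA-Glu-TTC was lower on the HCD by PANDORA-seq too, at 4743 ± 1361 RPM (SD, n = 4) on the HCD and 8573 ± 1900 RPM (SD, n = 5) on the LCD, and the difference was -2.03 (limma adjusted p = 0.0218). The difference of tsRNA-Glu-CTC, at -1.80, passed the test only with the replicate block (limma adjusted p = 0.0193, and 0.119 without it). By PANDORA-seq this family had 40242 to 76003 RPM in HCD livers and 64242 to 203610 RPM in LCD livers.

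mt-Ser-TGA tsRNA averaged 33.9 ± 15.2 RPM (SD, n = 4) by PANDORA-seq on the HCD and 40.7 ± 8.99 RPM (SD, n = 5) on the LCD, with a difference of -2.23 (limma adjusted p = 0.0461). miR-96 stayed at or under 0.178 RPM in every PANDORA-seq library, so its difference of -0.89 sets a change against RNA that was hardly read. It passed the filter only through the LCD libraries of traditional-seq, and nothing is read from its call.

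**Figure D5:**
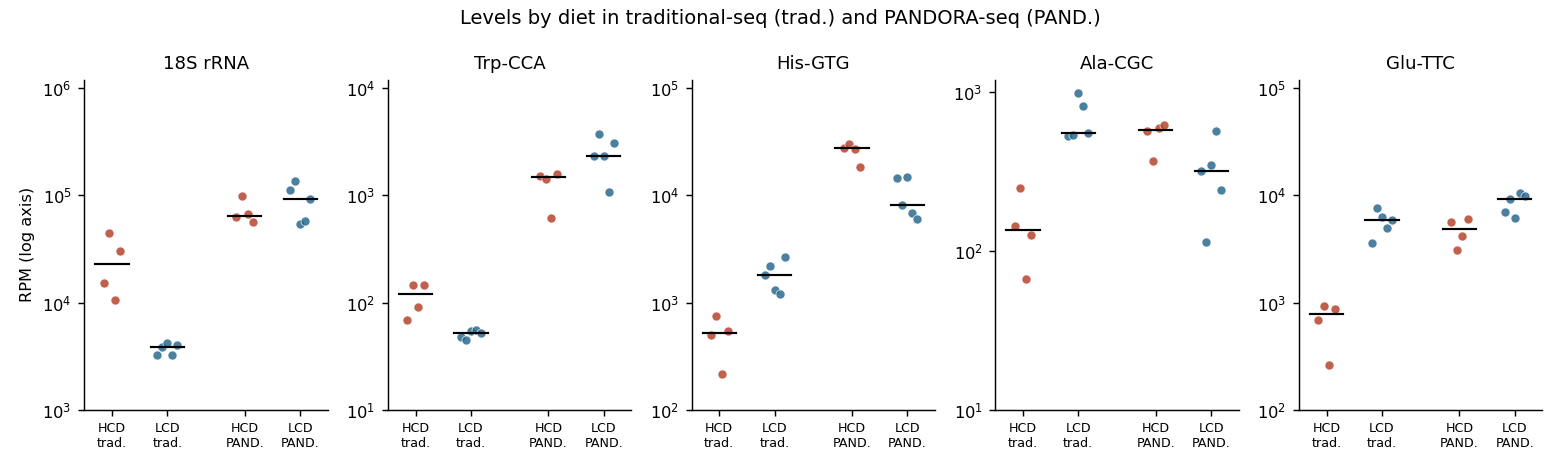
RPM of 5 RNAs in each library on log axes, with HCD left of LCD for traditional-seq (trad.) and then for PANDORA-seq (PAND.), and black lines for the median. His-GTG lies lower on the HCD by traditional-seq (217 to 744 RPM, against 1207 to 2651 RPM on the LCD) and higher by PANDORA-seq (18593 to 30245 RPM, against 5986 to 14713 RPM on the LCD).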

How the data were processed

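Small RNA of 15 to 50 nucleotides from mouse liver was sequenced by the authors, who matched reads to miRNAs, tRNAs, rRNAs, Y RNAs and piRNAs with SPORTS1.1 (mm10, 1 mismatch) and deposited RPM, reads scaled to a fixed library total, for each RNA. Empty cells were read as 0. Low values were not whole multiples of a read often enough (67.1% to 78.1% within 0.02 read, under 20 reads) for counts to be recovered, so no count test was run. RPM were scaled by TMM (trims of 30% and 5%), log2(RPM + 1) was fitted in limma 3.58.1 (R 4.3.3) with a mean-variance trend, and p-values were adjusted by Benjamini-Hochberg over all RNAs that reached 1 RPM in 4 or more libraries, at a threshold of 0.05. Fold changes on this scale understate the changes of rare RNAs. Within-class scaling divides by the summed RPM of the class. Shares were compared by exact permutation (126 assignments). Python 3.11.15, numpy 2.4.6, pandas 2.3.3, scipy 1.17.1 and matplotlib 3.10.9 were used. The test was checked on simulated data whose changes went in random directions, without a shift between the libraries. That check does not bear on calls that depend on the scaling.

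HCD-fed and LCD-fed mice are different animals, so nothing pairs them. The libraries of the methods pair by mouse, being made from the same RNA, and their deviations from the group means correlated at 0.117 to 0.484 in 9 of 9 mice. The PANDORA-seq library of the same mouse was the best match in only 4 of the 9. Each library is 1 mouse. Named were all rRNA, Y RNA and piRNA entries, tsRNA families with a mean of at least 100 RPM on either diet, the 10 most abundant miRNAs, called miRNAs of at least 20 RPM (up to 12 a direction), called members of the lists and RNAs the study names. miR-6236, miR-714, miR-881, miR-5098 and the rarer tsRNA families were named after their values were seen. The members and lists were chosen with earlier results of these data known. Alternatives were other scalings, pseudocounts of 0.1 and 5 RPM, other filters, all 18 libraries in 1 fit, the read total as a covariate, robust moderation, each library left out, TMM from miRNAs alone and LCD-fed mice 2 and 5 left out, the last 2 added after the data were seen.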

Additional observations from a re-analysis of the deposited data

Results flagged for a closer look

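Of 174 groups of libraries examined, 11 held a library far from the others (6.32%), where chance gives about 1 in 20. In the HCD group mouse 18 stood out for 5 RNAs. It had 2595 RPM of tsRNA-Leu-CAG (121 to 312 RPM in the other HCD livers), 1146 RPM of tsRNA-Leu-CAA (58.8 to 149 RPM), 875 RPM of tsRNA-Gln-TTG (284 to 370 RPM), 214 RPM of tsRNA-Thr-TGT (45.7 to 68.7 RPM) and 83.1 RPM of RNY1 (13.6 to 23.3 RPM). Its ysRNA share was 0.0104%. HCD-fed mouse 16 had 40.1 RPM of tsRNA-Gly-TCC (11.8 to 16.3 RPM in the other HCD livers). In the LCD group mouse 5 had 15394 RPM of 5S rRNA (8414 to 10063 RPM in the other LCD livers), 340 RPM of mt-Gln-TTG tsRNA (226 to 258 RPM) and a ysRNA share of 0.00897%. LCD-fed mouse 1, the shallowest library at 1934330 reads, had 0 RPM of miR-6236 (0.421 to 0.591 RPM in the others).

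The diet effect differed between the methods, by the limma interaction, for 7 RNAs called in the diet comparison. The differences (traditional-seq minus PANDORA-seq) were 3.07 for 18S rRNA, 2.24 for tsRNA-Trp-CCA, -3.15 for tsRNA-His-GTG, -2.99 for tsRNA-Ala-CGC, -2.03 for tsRNA-Glu-TTC, -2.23 for mt-Ser-TGA tsRNA and -0.89 for miR-96. Nothing is read from that of miR-96, which passed the filter only through LCD libraries.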

How the results depend on the processing

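Of the 34 called RNAs of the text, 6 changed sign, all under within-class scaling (log2 differences of 0.0233 for Ala-CGC, 0.41 for His-GTG, 0.29 for Lys-CTT, 0.33 for Arg-TCT, 0.21 for Gly-TCC and 0.37 for mt-Cys-GCA). Of 47 uncalled RNAs, 30 changed sign in 1 or more settings. Those that passed the test in the other direction under that scaling were Ala-AGC (1.53), Arg-CCT (0.99), Val-AAC (1.44), Val-CAC (1.35), mt-Glu-TTC (1.12), mt-Gly-TCC (1.62) and mt-Val-TAC (1.15). The scaling divides by class totals that themselves differed by diet. RNAs that rose numbered 3 on RPM as deposited, scaled by miRNA reads or by the listed RNAs, and without LCD-fed mice 2 and 5, 37 within classes, 4 with no filter and 7 with all 18 libraries in 1 fit. RNAs that fell numbered 57 on RPM as deposited, 49 scaled by miRNA reads, 53 scaled by the listed RNAs, 6 with no filter (1100 RNAs tested) and 38 without LCD-fed mice 2 and 5. Leaving out 1 library gave 5 to 16 that rose and 13 to 40 that fell, the fewest without HCD-fed mouse 18 and the most without HCD-fed mouse 16.

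For the methods, 40 differences were negative with the mouse as a replicate block and 43 on RPM as deposited. Leaving out a mouse, in the fit without the block, gave 0 to 11 positive and 0 to 14 negative. Of 22 single RNAs that passed this test with or without the block, 15 passed it only with the block. As a percent of all reads, 28S rRNA differed by 1.18 and 12S rRNA by 0.000358, on the other side of 0, 16S rRNA by -0.0440 (adjusted exact permutation p = 0.212) and 18S rRNA by 2.15 (adjusted p = 0.0635). With 1 library left out, the share differences ranged from -5.87 to -5.31 percentage points for cytosolic tsRNAs, -1.59 to -1.33 for mitochondrial tsRNAs (adjusted exact permutation p = 0.0357 to 0.0857 for both), -1.89 to -1.09 for the piRNA entry (adjusted p = 0.0357 to 0.171), 2.55 to 8.85 for rsRNAs, -0.535 to 6.13 for miRNAs and -0.00372 to -0.000829 for ysRNAs (which passed only without HCD-fed mouse 18, adjusted p = 0.0357), and among rRNAs 6.91 to 10.4 for 18S, -0.347 to -0.261 for 16S, -15.7 to -9.02 for 28S, -0.269 to 0.529 for 5.8S and -0.00605 to 0.00136 for 12S. With fewer libraries the smallest exact p is larger (0.0179 for 3 against 5). The shallowest library has 1934330 reads, so RNAs near 1 RPM rest on few reads, and the test compares shares of a library, not amounts of RNA.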

Other observations

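The LCD libraries of mice 2 and 5 shared high values of several miRNAs. miR-21a, abundant in leukocytes and injured liver, had 66936 and 64863 RPM in these mice, against 16884 to 25262 RPM in the other 3 LCD livers. miR-34a, a target gene of p53, had 20.3 and 13.3 RPM in them, against 0.417 to 0.961 RPM in the others.

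In HCD-fed mouse 18, miR-128-1 had 108 RPM, against 13.7 to 33.2 RPM in the other HCD livers and 25.1 to 31.8 RPM in LCD livers. tsRNA-Leu-CAG made up 13.9% of its cytosolic tsRNA reads, and the ratio of Leu-CAG to Leu-CAA in it (1.18 on the log2 scale) lay within the range of the other livers (0.999 to 1.25).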
